A study of Mus musculus with 6 samples.

Results

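The genes described here encode the oxidative phosphorylation machinery, the chain of protein complexes in the inner mitochondrial membrane that makes ATP from the oxidation of nutrients. They were taken by gene symbol from the GENCODE M21 annotation: protein-coding genes that start with Nduf, Uqcr, Cox4 to Cox8 or Atp5, the subunit genes Sdha to Sdhd, and the 13 protein genes of the mitochondrial genome. Of 106 such genes in the table, 87 had at least 10 counts in at least 3 libraries and form the set, 79 nuclear and 8 mitochondrially encoded, out of 53465 genes in the whole table. Complex I had 46 genes, complex II 4, complex III 9, complex IV 13 and complex V 15. Ndufa4 was placed in complex IV, because its protein is now known as a subunit of that complex despite its name.

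The RNA came from ID8 cells, a line derived from the surface epithelium of the mouse ovary and used as a model of ovarian cancer. There were 6 libraries in 2 groups of 3, labelled KO and WT, with replicates numbered 4 to 6 in each. The design names ID8 cells with a stable guide against Nat10, called a knockdown there and taken here as KO, and ID8 cells with a stable control guide, sgNC, taken as WT. It asks which transcripts, those of the DNA damage response above all, change when NAT10, the enzyme that acetylates cytidine in RNA, is depleted. Each guide stands for 1 stable line, so the effect of the guide and other differences of that line cannot be told apart. The labels do not say whether replicates were grown separately, and the p-values then cover only the spread among these libraries, which may be technical.

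Nat10 mRNA did not mark the KO libraries. It stood at 122, 56.4 and 137 CPM (the count scaled for library size, where 1 count is worth 0.307 to 0.602 CPM) in the KO libraries and at 101, 63.3 and 167 CPM in the WT libraries, a log2 fold change of -0.07 with a 95% interval from -1.09 to 0.94. Groups are therefore called by their labels throughout. Total counts per library ran from 2234305 to 3126208 in KO and from 1687466 to 2148715 in WT. Of the 6 epithelial markers checked, Krt19, Krt18 and Krt8 carried the signal, and Epcam had no count. The summed level of the 6 was 2279 to 2459 CPM in KO and 4715 to 5021 CPM in WT. The 5 mesothelial markers summed to 2203 to 2826 CPM in KO and 1261 to 1590 CPM in WT. Of these, Msln was at 1389 to 1787 CPM in KO and 700 to 865 CPM in WT. Upk1b was at 497 to 766 CPM in KO and 317 to 364 CPM in WT. Upk3b and Wt1 overlapped between the groups, and Lrrn4 had no count in KO and 12, 3 and 0 counts in WT. Of the 3 fibroblast markers, Dcn was at 939 to 1306 CPM in KO and 660 to 730 CPM in WT, Col1a1 was at 0.386 to 16.1 CPM in KO and 42.4 to 84.6 CPM in WT, and Pdgfra was at or under 5.41 CPM. The 5 leukocyte, 3 endothelial and 2 erythroid markers were at or near 0, with at most 14.3 CPM summed in any library. The 3 muscle markers Myh7, Actn2 and Ckm had 7, 102 and 12 counts in KO replicate 6 and none in any other library. In bulk RNA, fewer cells of a type and less RNA per cell cannot be told apart, and the part of these marker differences in the results was not tested.

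Respiration runs through complexes I to V in turn. Complex I (NADH dehydrogenase) and complex II (succinate dehydrogenase, which is also an enzyme of the citric acid cycle) feed electrons to complex III (cytochrome bc1), which passes them through cytochrome c to complex IV (cytochrome c oxidase), where oxygen is reduced. Complexes I, III and IV pump protons, and complex V (ATP synthase) lets the protons return and makes ATP. All of these except complex II are built from products of both genomes, and the mitochondrial genome supplies core subunits of the proton-pumping parts.

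How far the mitochondrial genome could be read at all differed from gene to gene. A block of 7 unprocessed pseudogenes on chromosome 1, from 24611535 to 24616197 in mm10, holds a nuclear copy of part of the mitochondrial genome. Every 100-base window of the 13 mitochondrial transcripts was looked up without mismatch in the transcripts of other annotated genes. For mt-Co2, mt-Co3, mt-Atp6, mt-Nd4l and mt-Nd3 the share of windows found elsewhere was 99.5%, 99.9%, 99.5%, 98.5% and 97.6%. For mt-Nd4 it was 60.8% and for mt-Co1 30.8%, while for mt-Nd2 it was 3.20% and for mt-Nd1, mt-Nd5, mt-Nd6 and mt-Cytb 0%. Windows of 50 bases gave 62.2% for mt-Nd4, 51.1% for mt-Co1, 8.19% for mt-Nd2 and 7.61% for mt-Nd5. They still gave 0% for mt-Nd1, mt-Nd6 and mt-Cytb. A stretch of 60 bases of mt-Co2 (chrM:7323-7382, plus strand, mm10) is shown because it stands for the first kind, beside its copy in Gm28661 (chr1:24615196-24615255, minus strand), followed by a stretch of mt-Nd5 (chrM:12447-12506, plus strand) and its nearest annotated copy in Gm4076 (chr13:85127455-85127514, minus strand), which stands for the other kind. Capitals mark a base that differs between the pair, and all are given 5′ to 3′ in the direction of the transcript.
mt-Co2: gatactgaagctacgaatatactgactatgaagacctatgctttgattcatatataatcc
Gm28661: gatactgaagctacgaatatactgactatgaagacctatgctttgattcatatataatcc
mt-Nd5: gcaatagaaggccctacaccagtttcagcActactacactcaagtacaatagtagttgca
Gm4076: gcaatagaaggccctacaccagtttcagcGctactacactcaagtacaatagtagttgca

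The mt-Co2 transcript had no differing base from Gm28661 over the 681 bases compared, and neither had mt-Atp6 from Gm10925 over 678 bases or mt-Co3 from Gm28437 over 783 bases. Between mt-Nd5 and Gm4076, compared without gaps, 93 of 965 bases differed, and the difference shown is A735G, counted from the first base of mt-Nd5. The differences were densest from base 1603 to base 1670, at the end of the compared stretch. The count is therefore not a measure of divergence over the whole stretch. The counts followed the same division, with mt-Atp8 as an exception. The 5 genes with at least 97.6% of their 100-base windows elsewhere had mean levels of at most 12.5 CPM per kb of exon over the 6 libraries. Of the genes at 3.20% or less, mt-Atp8 was at 0.66 CPM per kb and the other 5 were at 90.0 CPM per kb or more. mt-Nd3 had no count in any library, mt-Nd4l had 2 counts over all 6, mt-Atp6 had 23 and mt-Co3 had 28. The pseudogenes did not take the reads up either, since the 7 genes of the block together had 104 counts over the 6 libraries. mt-Atp8, at 2 counts over all libraries, had none of its windows in an annotated gene; it lies between mt-Co2 and mt-Atp6, and the chromosome 1 sequence between Gm10925 and Gm28661 was not examined. The sources used here do not say how the counting treated reads with several matches, so the part this plays was not tested. Levels of mt-Co2, mt-Co3, mt-Atp6, mt-Nd3 and mt-Nd4l in this table are therefore not read as the abundance of those transcripts, and mt-Co1 and mt-Nd4 may be counted in part.

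**Figure D1:**
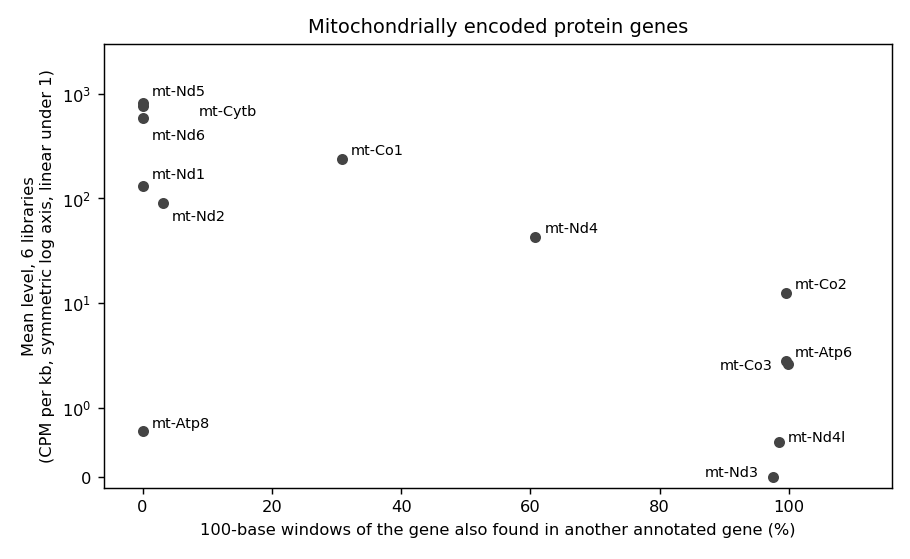
Share of each mitochondrial gene's 100-base windows found in another annotated gene (horizontal axis, percent) against its mean level over the 6 libraries (vertical axis, CPM per kb of exon, symmetric log scale that is linear under 1). Each point is 1 of the 13 genes; the 5 genes at 97.6% or more lie at or under 12.5 CPM per kb, and mt-Atp8 is the 1 gene that is low without an annotated copy.

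Among the mitochondrial genes that could be read, none passed the test between KO and WT. The 13 genes together made up 0.287%, 0.318% and 0.380% of all counts in the KO libraries and 0.492%, 0.256% and 0.273% in the WT libraries, means of 0.328% ± 0.0478 and 0.340% ± 0.132 (SD, n = 3 each). The groups overlapped, and WT replicate 4 was the highest of the 6. At these depths the 95% Wilson interval of the share, which covers counting error only, ran from 0.280% to 0.293% in KO replicate 4. In KO replicate 6 it ran from 0.374% to 0.387%. In WT it ran from 0.481% to 0.503% in replicate 4 and from 0.250% to 0.263% in replicate 5. Libraries of 1 group thus differed by more than counting error. mt-Nd5, which encodes a proton-pumping subunit of complex I, accounted for 43.9%, 30.6% and 46.8% of these counts in KO and 66.1%, 41.8% and 22.6% in WT. The 2 mitochondrial ribosomal RNAs, which are not part of the set, took 11.1%, 10.4% and 7.10% of all counts in KO and 8.74%, 11.5% and 14.2% in WT, although the libraries were made from poly(A)-selected RNA. Gm42418, which overlaps a nuclear ribosomal RNA repeat, took a further 9.72% ± 0.390 in KO and 12.9% ± 0.855 in WT, and the mitochondrial protein share overlapped between the groups without those counts as well.

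mt-Nd5 stood at 1236, 920 and 1711 CPM in KO and at 3303, 1140 and 638 CPM in WT. Its log2 fold change was -0.39 ± 0.53 (SE), and without WT replicate 4 it was 0.54. mt-Cytb, the cytochrome b of complex III, stood at 796, 1055 and 1087 CPM in KO and at 730, 656 and 985 CPM in WT. The groups overlapped by 1 library of each, and the log2 fold change of 0.31 had a 95% interval from -0.13 to 0.75. mt-Co1, the catalytic subunit of complex IV, stood at 334, 409 and 305 CPM in KO and at 284, 315 and 560 CPM in WT, with an interval from -0.74 to 0.45. mt-Nd6, the single protein gene on the other strand of the mitochondrial genome, stood at 315, 197 and 399 CPM in KO and at 210, 355 and 343 CPM in WT, and its log2 fold change of 0.00 had an interval from -0.65 to 0.66. Whether reads were counted by strand is unknown, so reads from the opposite strand at mt-Nd6 cannot be told apart from its own. For mt-Nd6, mt-Cytb and mt-Co1 the interval lay within a 2-fold change in either direction.

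mt-Nd1 and mt-Nd2, neighbouring genes for membrane subunits of complex I, shared a pattern across libraries. mt-Nd1 stood at 49.8, 157 and 47.9 CPM in KO and at 191, 111 and 193 CPM in WT, and mt-Nd2 stood at 35.9, 172 and 27.6 CPM in KO and at 126, 103 and 96.2 CPM in WT. In both genes KO replicates 4 and 6 were below every WT library and KO replicate 5 was above at least 1 of them. The log2 fold change of mt-Nd1 was -0.96 ± 0.49 (SE; Benjamini-Hochberg adjusted p = 0.858 in the quasi-likelihood test of edgeR), and -1.75 without KO replicate 5. That of mt-Nd2 was -0.47 ± 0.61, and -1.76 without the same library. mt-Nd4 ran from 36.3 to 83.5 CPM in KO and from 2.86 to 142 CPM in WT, and its log2 fold change of -0.12 was 1.41 without WT replicate 4 and 0.13 without KO replicate 4. mt-Co2 had 20, 21 and 71 counts in KO and 13, 3 and 6 counts in WT. Because it has an identical copy in Gm28661 over the bases compared, these counts are not read as its abundance.

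**Figure D2:**
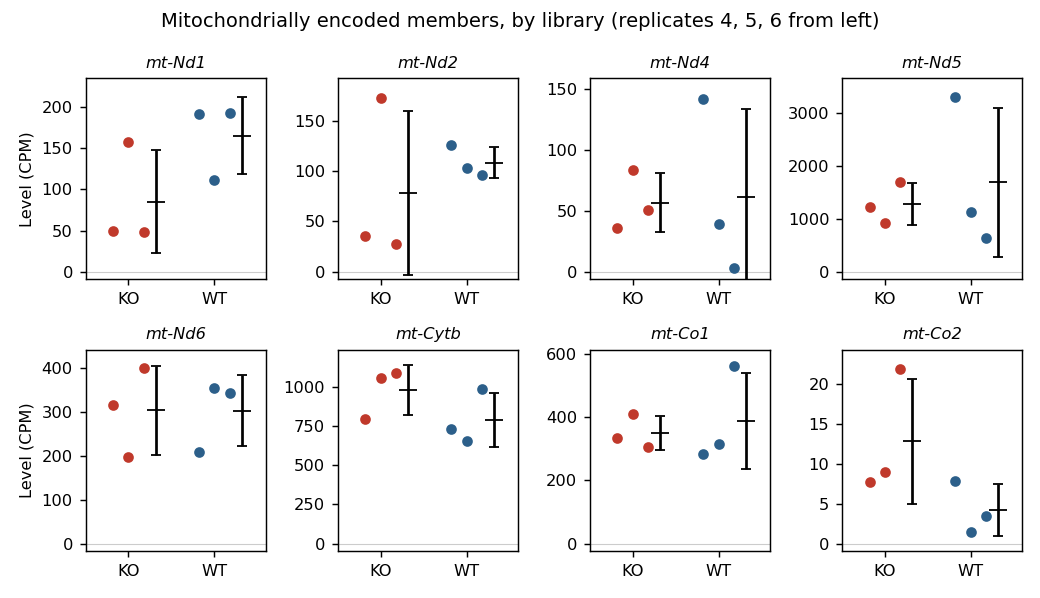
Level (CPM, linear axis from 0) of the 8 mitochondrially encoded genes of the set in each library, KO left and WT right; points are replicates 4, 5 and 6 from left to right, and bars give the mean and SD (n = 3). KO and WT overlap in every panel, and WT replicate 4 stands highest for mt-Nd5 at 3303 CPM.

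Across the whole set, KO and WT were not separated by the test. None of the 87 genes passed an adjusted p of 0.05 in edgeR, against 0.402% of the 8200 genes tested (0.183% higher and 0.22% lower in KO, 33 genes in all). DESeq2, run as an alternative, called 2 of the 87, both lower in KO, against 2.97% of 7970 genes (1.34% higher and 1.63% lower), and limma-voom called none. At an unadjusted p of 0.05 there were 4 genes, all lower in KO, or 4.6%, against 6.49% of all tested genes (2.7% higher and 3.79% lower). The groups did not overlap for 9 genes (5 higher and 4 lower in KO), or 10.3%, against 14.9% of all tested genes (6.94% higher and 7.93% lower). The last 2 shares lay below those of the whole table. All 87 genes entered the test. Ndufb4 was the 1 gene that passed the count minimum through the libraries of a single group, WT, and so had to differ. Without it, 3 genes had an unadjusted p under 0.05 and 3 lay wholly lower in KO.

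The median log2 fold change of the 87 genes was -0.13, against -0.02 for all tested genes, and 38 estimates lay above 0 and 49 below (of all tested genes 49% lay above 0 and 51% below). The 79 nuclear genes had a median of -0.13 and the 8 mitochondrial genes -0.13. Of the 8, mt-Co2 is not read as abundance, and mt-Nd4 and mt-Co1 may be counted in part. Without those genes the mitochondrial median was -0.39, the value of mt-Nd5. By complex, with both genomes together, the medians were -0.06 for complex I, -0.23 for II, 0.01 for III, -0.06 for IV and -0.21 for V. Complex V had 11 of 15 estimates below 0 and complex I 23 of 46. For comparison, the median of each library's genes around their 6-library means varied between replicates. The SD (log2) was 0.07 for complex V, 0.13 for complex I, 0.44 for complex II and 0.27 for the 8 mitochondrial genes. The 95% interval lay within a 2-fold change in either direction for 18 of the 87 genes (20.7%), against 9.44% of all tested genes. The typical gene of the set was measured with an SE of 0.52 on the log2 scale, against 0.99 over all tested genes, and had a median level of 91.5 CPM against 36.3 CPM.

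**Figure D3:**
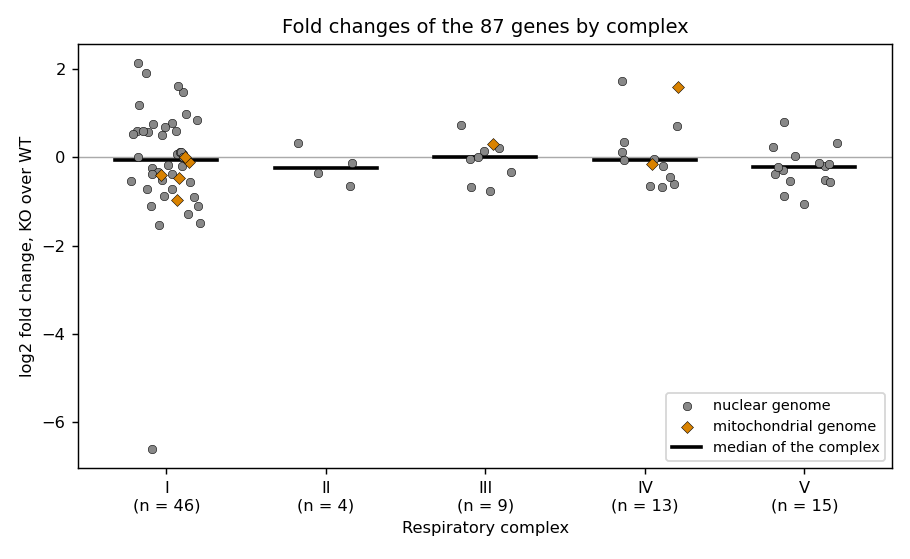
Log2 fold change, KO over WT, of the 87 genes by respiratory complex (horizontal axis); circles are nuclear genes, diamonds mitochondrially encoded genes, and black bars the median of each complex. The medians lie between -0.23 and 0.01; the point near -6.6 is Ndufb4, which had 1 count over the 3 KO libraries.

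Complex I joins a catalytic core of 7 nuclear and 7 mitochondrial subunits to a shell of accessory subunits. The 7 nuclear core genes, which carry the flavin and iron-sulfur centres, had log2 fold changes from -0.71 to 1.61 with a median of -0.19, 3 above 0 and 4 below. Ndufv1, which binds NADH and flavin, was the most abundant nuclear complex I gene per kb of exon (172 ± 28.3 CPM per kb in KO and 197 ± 46.6 CPM per kb in WT, SD, n = 3 each). It stood at 479, 369 and 511 CPM in KO and at 468, 658 and 428 CPM in WT, with an interval from -0.70 to 0.31. Ndufs3, another of the core subunits, stood at 83.4, 63.6 and 12.0 CPM in KO and at 12.6, 22.3 and 17.2 CPM in WT, so KO replicates 4 and 5 were above and replicate 6 below all WT libraries.

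The 29 accessory genes of complex I varied most. Their log2 fold changes ran from -6.61 to 2.13 with a median of 0.50, and 17 were above 0 and 12 below. Ndufa8 stood at 68.4, 27.1 and 27.0 CPM in KO and at 104, 136 and 117 CPM in WT, so every KO library was below every WT library. Its log2 fold change was -1.54 ± 0.52 (SE), with an adjusted p of 0.455 in edgeR and 0.0492 in DESeq2, and it ran from -2.13 to -1.32 with 1 library left out. Ndufa8 (ENSMUSG00000026895; chromosome 2, 36036326 to 36049406, mm10) encodes an accessory subunit on the intermembrane side. Ndufb4 had 0, 0 and 1 count in KO and 10, 18 and 58 counts in WT. The ratio of WT over KO was 130, with a 95% counting interval from 22.7 to 5191. That interval pools the libraries of each group and leaves out the spread between them. The edgeR log2 fold change of Ndufb4 was -6.61, with a 95% interval from -12.8 to -0.43. Ndufb4 passed the count minimum through the WT libraries alone, so a difference between the groups was fixed by that rule. Its edgeR adjusted p was 0.692 and its DESeq2 adjusted p 0.0773, and 16.0% of its windows were also found in Ndufb4c, so reads of this gene may be split.

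The accessory genes Ndufa3, Ndufa6 and Ndufa13 were higher in every KO library than in any WT library, and are named for that after their values were seen. Ndufa6 stood at 122, 95.8 and 68.5 CPM in KO and at 39.1, 57.9 and 4.58 CPM in WT. Ndufa13, also known as GRIM-19, stood at 57.9, 55.1 and 49.8 CPM in KO and at 10.2, 26.7 and 0 CPM in WT, and 30.0% of its exon bases are overlapped by exons of Tssk6. Ndufa3 stood at 119, 134 and 93.4 CPM in KO and at 74.7, 87.6 and 52.7 CPM in WT. None passed the test: the edgeR adjusted p was 0.811 for Ndufa6, 0.980 for Ndufa13 and 1.0 for Ndufa3, and the intervals of all 3 included 0. The 5 assembly factors of complex I in the set, Ndufaf1, Ndufaf2, Ndufaf3, Ndufaf6 and Ndufaf7, which help to build the complex without remaining in it, had log2 fold changes from -1.11 to 0.09. Ndufaf6, with 0, 70 and 0 counts in KO and 24, 1 and 85 counts in WT, was among the genes just inside the count minimum.

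**Figure D4:**
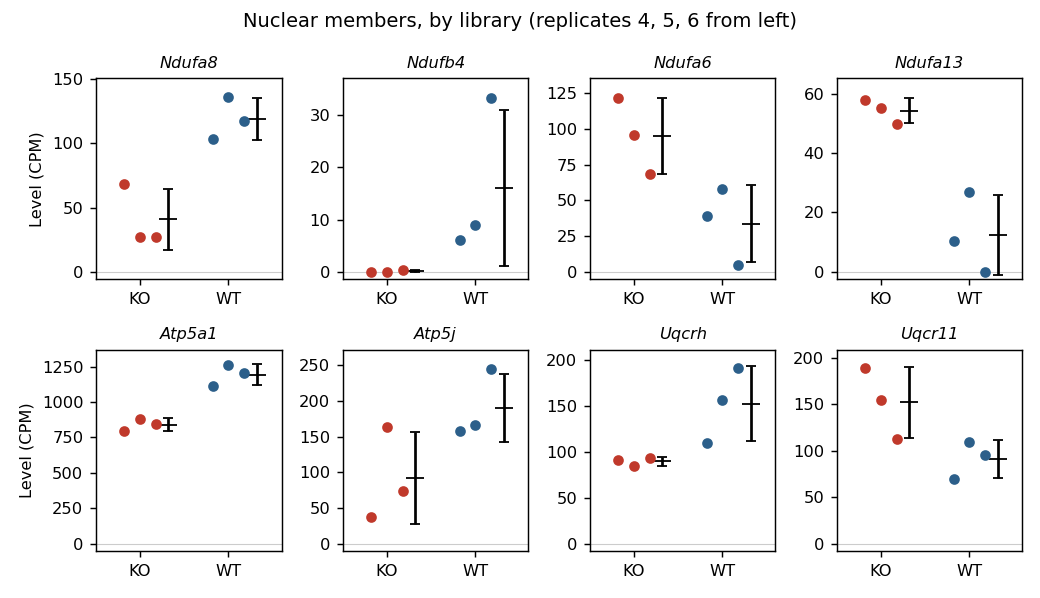
Level (CPM, linear axis from 0) of 8 nuclear genes in each library, KO left and WT right; points are replicates 4, 5 and 6 from left to right, and bars give the mean and SD (n = 3). KO lies wholly below WT for Ndufa8, Ndufb4, Atp5a1 and Uqcrh and wholly above it for Ndufa6, Ndufa13 and Uqcr11, while Atp5j overlaps.

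Complex II is made wholly from nuclear genes, and its 4 genes had intervals that included 0. Sdha, the flavoprotein, had a log2 fold change of -0.12 and Sdhb, the iron-sulfur subunit, 0.32. Sdhb stood at 279, 42.8 and 59.0 CPM in KO and at 93.3, 112 and 99.6 CPM in WT. KO replicate 4 alone was above the WT libraries, and without it the log2 fold change of Sdhb was -0.99. Sdhc and Sdhd, which anchor the enzyme in the membrane, had the smallest p-values of the 4. Sdhc stood at 135, 143 and 58.4 CPM in KO and at 148, 125 and 255 CPM in WT, a log2 fold change of -0.65 ± 0.42 (SE). Sdhd, the most abundant of the 4 per kb, stood at 148, 165 and 72.2 CPM in KO and at 170, 134 and 186 CPM in WT, a log2 fold change of -0.35 ± 0.38. In both genes KO replicate 6 was the lowest of the 6 libraries. The summed level of the 4 genes was 965, 830 and 399 CPM in KO and 801, 719 and 989 CPM in WT, and without KO replicate 6 the median log2 fold change of the complex was 0.04.

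Complex III gave 1 gene apart in each direction. Uqcr11, a small accessory subunit and the most abundant nuclear gene of the complex per kb, stood at 189, 155 and 113 CPM in KO and at 69.2, 109 and 95.6 CPM in WT. Every KO library was above every WT library, with a log2 fold change of 0.74 ± 0.39 (SE; edgeR adjusted p = 0.877). Uqcrh, the hinge protein that helps cytochrome c to dock, stood at 90.4, 84.4 and 93.4 CPM in KO and at 110, 156 and 191 CPM in WT. Here every KO library was below every WT library, with a log2 fold change of -0.77 ± 0.38 (edgeR adjusted p = 0.824). The other nuclear genes included the Rieske iron-sulfur protein Uqcrfs1 at -0.03 and the large core proteins Uqcrc1 at -0.67 and Uqcrc2 at -0.34, all with intervals that included 0. Uqcrh lies on chromosome 4 from 116066965 to 116075071, and the other genes of the set on that chromosome ran from a log2 fold change of -1.10 for Ndufaf6 to 1.92 for Ndufs5.

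Complex IV is where nuclear subunits come in alternative forms, and the libraries held the widely expressed forms. Cox4i1 was measured at 414, 225 and 255 CPM in KO and at 194, 311 and 196 CPM in WT, whereas Cox4i2, the form known from lung and low oxygen, had no count in any library. Cox6b2 and Cox8c, known from testis, also had none, nor had Cox7b2 and Ndufa4l2, a paralog of Ndufa4 induced by low oxygen. A count of 0 over the 6 libraries allows a level of up to 0.220 CPM (3 counts over all libraries, counting error only). The heart and muscle forms were low. Cox6a2 had 12 counts and Cox8b 4 counts, all in KO replicate 6, the library that also held the muscle markers Myh7, Actn2 and Ckm. Cox7a1 had 6 counts in KO replicate 6 and 25 counts in WT replicate 4. Their partners Cox6a1, Cox8a and Cox7a2 stood at 107 ± 20.3, 115 ± 28.4 and 73.0 ± 11.2 CPM in KO and at 122 ± 23.1, 69.7 ± 10.6 and 76.0 ± 28.3 CPM in WT (SD, n = 3 each).

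Between the groups, the libraries did not overlap for Cox8a and overlapped for Ndufa4. Cox8a stood at 136, 82.7 and 125 CPM in KO and at 57.8, 78.2 and 73.3 CPM in WT, a log2 fold change of 0.72 ± 0.43 (SE; edgeR adjusted p = 0.990). Ndufa4, the most abundant nuclear gene of complex IV per kb (432 ± 97.9 CPM per kb in KO and 443 ± 150 CPM per kb in WT), stood at 751, 497 and 543 CPM in KO and at 522, 465 and 849 CPM in WT, with an interval from -0.58 to 0.51. Cox6b1, which joins the monomers of the complex, stood at 49.4, 93.7 and 91.2 CPM in KO and at 89.1, 159 and 122 CPM in WT, with a log2 fold change of -0.66 ± 0.44. Cox7c had 21, 0 and 92 counts in KO and 0, 7 and 13 counts in WT, just inside the count minimum, and 16.2% of its windows were also found in other genes. Cox7a2l, known for joining complexes III and IV into supercomplexes, had 64 counts in KO replicate 6, 1 in KO replicate 5 and 5 in WT replicate 4, and fell outside the set.

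Complex V held the most abundant nuclear gene per kb and, in Atp5a1, the smallest SE of the set. Atp5a1 and Atp5b encode the alpha and beta subunits that form the catalytic head. Atp5b, the most abundant nuclear gene of the set per kb (432 ± 112 CPM per kb in KO and 492 ± 30.9 CPM per kb in WT), stood at 2194, 1296 and 2003 CPM in KO and at 2059, 2228 and 1970 CPM in WT, and its log2 fold change of -0.19 had an interval from -0.59 to 0.21. Atp5a1 stood at 793, 882 and 848 CPM in KO and at 1116, 1261 and 1203 CPM in WT. Every KO library was below every WT library, and the gap between the groups was wider than the spread within either of them. The log2 fold change was -0.50 ± 0.17 (SE), with an interval from -0.87 to -0.14. Its adjusted p was 0.444 in edgeR and 0.0424 in DESeq2. The estimate ran from -0.55 to -0.46 with 1 library left out. Its gene (ENSMUSG00000025428) is on chromosome 18, from 77773729 to 77782869.

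KO and WT overlapped for the other head genes. Atp5c1, Atp5d and Atp5e, which encode the gamma, delta and epsilon subunits of the rotating stalk, had log2 fold changes of 0.23, 0.04 and -0.37 with intervals that included 0. Of the 10 genes of the peripheral stalk and membrane part, 8 had estimates below 0, and the median was -0.25. Atp5j, the coupling factor of the stalk, stood at 37.9, 163 and 73.7 CPM in KO and at 158, 167 and 245 CPM in WT, a log2 fold change of -1.05 ± 0.47 (SE; edgeR adjusted p = 0.713), and -1.75 without KO replicate 5. Annotated exons of Gabpa overlap 12.7% of the exons of Atp5j. For 11 of the 87 genes such overlaps cover at least 10% of the exons. Atp5o, the subunit that links the stalk to the head, was at 0.81 ± 0.46, with 47.9% of its exons overlapped by other genes.

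Subunit c, which forms the rotating ring of complex V, is encoded by Atp5g1, Atp5g2 and Atp5g3, which give the same mature protein. Atp5g3 made up 82.2%, 91.2% and 96.9% of their summed CPM in KO and 89.9%, 87.3% and 83.6% in WT. Their sum was 412, 383 and 506 CPM in KO and 463, 589 and 520 CPM in WT, so KO replicate 6 lay within the WT range. Atp5g3 stood at 338, 349 and 490 CPM in KO and at 416, 514 and 435 CPM in WT, with a log2 fold change of -0.21 ± 0.23 (SE). Atp5g1 stood at 68.0, 0 and 2.46 CPM in KO and at 36.7, 41.1 and 51.5 CPM in WT, so a single KO library held nearly all of its KO counts. Of the windows of Atp5g2, 34.7% were also found in other genes.

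**Figure D5:**
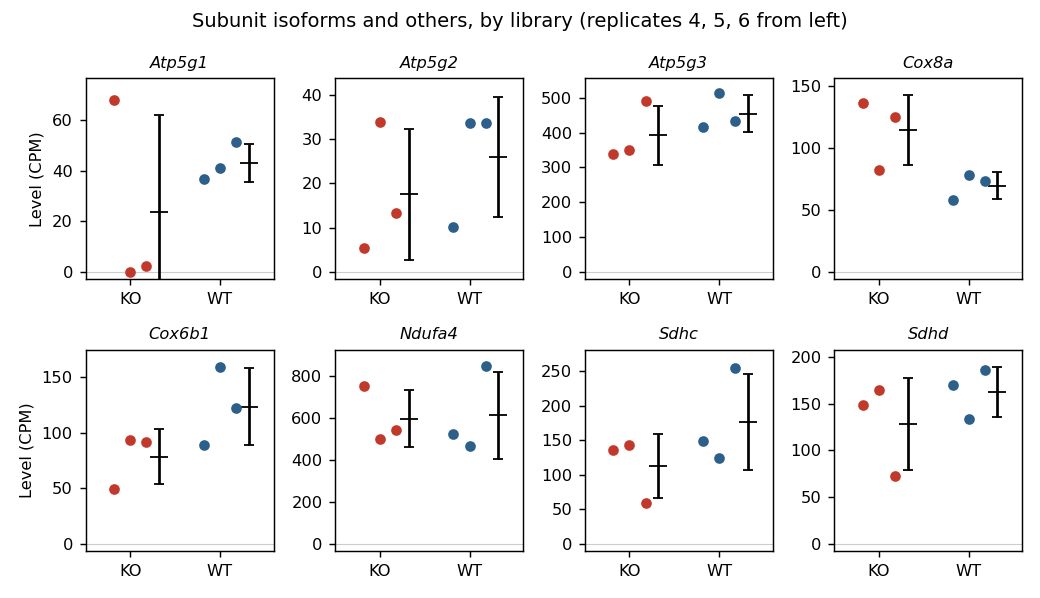
Level (CPM, linear axis from 0) of the 3 subunit c genes and of Cox8a, Cox6b1, Ndufa4, Sdhc and Sdhd in each library, KO left and WT right; points are replicates 4, 5 and 6 from left to right, and bars give the mean and SD (n = 3). Cox8a is the panel whose groups do not overlap, and Atp5g1 is at 68.0 CPM in KO replicate 4 and 0 in KO replicate 5 (the KO bar of Atp5g1 runs past the lower edge).

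Per kb of exon, the 8 genes above 200 CPM per kb over the 6 libraries were mt-Nd5, mt-Cytb, mt-Nd6, Atp5b, Ndufa4, Atp5a1, Atp5k and mt-Co1, in falling order, and Atp5k encodes a small membrane subunit of complex V. The median level of the nuclear genes was 26.6 CPM per kb for complex I, 71.5 for II, 86.8 for III, 142 for IV and 69.4 for V. The lowest gene of the set per kb was Ndufb2 at 3.23 CPM per kb. The length used is the union of all annotated exons of a gene, 5628 bases for Ndufb2. In counts Ndufb2 was not the lowest, with 261 over the 6 libraries against 87 for Ndufb4. Ranks and medians per kb, also those by complex, thus depend on annotated length as well as on counts. The counts of the nuclear genes together were 1.21%, 1.05% and 1.12% of the total in KO and 1.09%, 1.19% and 1.16% in WT. Summed CPM of the nuclear complex V genes was 4666, 4090 and 4784 in KO and 4912, 5603 and 5294 in WT, and this was the 1 complex of the 5 whose summed CPM did not overlap between the groups. As a share of all counts, without TMM scaling, the same genes made up 0.475%, 0.432% and 0.498% in KO and 0.483%, 0.527% and 0.511% in WT, which do overlap. Atp5a1, at 793 to 882 CPM in KO and 1116 to 1261 CPM in WT, was the 1 gene of these 15 that lay apart. The gap between its groups was wider than that between the summed CPM, so the sums do not show a difference across the complex. Of all tested genes, 14.9% lay apart singly.

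The lists of genes outside the set that serve the same machinery held 2 genes of 191 tested that DESeq2 called, against 2.97% of all genes it tested, and none that edgeR called, against 0.402%. Of 36 tested assembly factors and electron carriers, 14 transcription and replication factors of mitochondrial DNA, 20 factors of mitochondrial RNA processing, 72 mitochondrial ribosomal proteins, 10 regulators of respiratory genes, 17 genes of the citric acid cycle, 6 carriers and porins and 16 import genes, none passed the edgeR test, and 2 had an unadjusted p under 0.05, against 6.49% of all tested genes. DESeq2 called the same 2 genes, which were Coa7, an assembly factor of complex IV, and Ptcd3, a protein of the small mitochondrial ribosomal subunit that binds RNA, both lower in KO. Coa7 had no count in KO and 27, 67 and 22 counts in WT, at least 58.4-fold lower when KO is set at 3 counts over the group, with an adjusted p of 0.510 in edgeR and 0.0142 in DESeq2, and it lies on chromosome 4 from 108328140 to 108341544. It passed the filter on low counts through the WT libraries alone, so a difference between the groups was partly fixed by that filter. Ptcd3 had 231, 99 and 74 counts in KO and 305, 417 and 221 counts in WT, a log2 fold change of -1.75 ± 0.50 (SE), with an adjusted p of 0.286 in edgeR and 0.0133 in DESeq2.

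In the other lists the smallest p-values belonged to genes that did not pass in either tool. Cs, which encodes citrate synthase, stood at 519 ± 54.3 CPM in KO and 688 ± 48.8 CPM in WT (SD, n = 3 each), a log2 fold change of -0.41 ± 0.20 (SE; edgeR adjusted p = 0.802). Gabpb1, a subunit of the factor NRF-2 that acts on respiratory gene promoters, was at 46.2 ± 13.9 CPM in KO and 15.2 ± 7.03 CPM in WT. Mrps27 was at 15.2 ± 2.88 CPM in KO and 55.7 ± 40.5 CPM in WT, and Slc25a4, an exchanger of ADP for ATP, at 360 ± 132 CPM in KO and 262 ± 42.7 CPM in WT. Polg, the polymerase of mitochondrial DNA, had 41, 62 and 199 counts in KO and 0, 12 and 40 counts in WT, and the import channel gene Timm23 was at 52.3 ± 31.4 CPM in KO and 20.2 ± 16.5 CPM in WT. The median log2 fold changes were -0.43 for the assembly factors and electron carriers (14 above 0 and 22 below), -0.39 for the regulators (3 and 7), -0.27 for the citric acid cycle (6 and 11) and -0.12 for import (7 and 9). They were 0.00 for the ribosomal proteins (36 and 36), 0.08 for the carriers and porins (4 and 2), 0.10 for RNA processing (13 and 7) and 0.38 for transcription and replication (8 and 6).

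The 19 genes that did not reach the count minimum were 14 nuclear and 5 mitochondrial ones. Just outside it, with 2 libraries of at least 10 counts, were Atp5l (0, 56 and 2 counts in KO and 7, 85 and 1 in WT), Ndufaf4 (0, 0 and 2 in KO and 8, 78 and 66 in WT), Ndufaf5 and Ndufaf8. Ndufaf4 and Ndufaf5, both assembly factors of complex I, still entered the test across all genes. Ndufaf4 passed no adjusted threshold in edgeR (adjusted p = 0.570) and was called lower in KO by DESeq2 (adjusted p = 0.0200), having passed the filter on low counts through the WT libraries alone. Just inside it, with 3 such libraries, were Ndufb4, Ndufaf6, Ndufs5 and Cox7c. Of the 87 genes, 72 had at least 10 counts in all 6 libraries and 8 had a count of 0 in at least 1.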

How the data were processed

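The authors deposited 1 table of whole-number read counts per Ensembl gene, with 1 column for each of the 6 libraries. The build mm10 and the tools featureCounts 1.5.0-p3, HISAT2 2.0.5 and fastp are named in the submitters' processing notes. The strand mode and the treatment of reads with several matches were not given in these sources. Columns were matched to samples through the labels.

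Symbols, positions and exon lengths came from GENCODE M21. Genes passing filterByExpr (minimum count 10; 8200 genes) entered the quasi-likelihood test of edgeR 4.0.16 (R 4.3.3), scaled by TMM, with a robust fit, the group as the only term, two-sided p-values and Benjamini-Hochberg adjustment over all tested genes. SEs were derived from the test statistic. Alternatives used DESeq2 1.42.0 and limma 3.58.1. Members, lists and the naming rule (mitochondrial genes, genes called, the 2 nuclear genes with the smallest p and the one with the highest level per length in each complex, alternative isoforms, genes next to the count minimum, and in each pathway list the genes called or the smallest p) were chosen with earlier results of these data known. Genes named outside that rule, such as Ndufa3, Ndufs3 and Uqcrc1, were picked with their values in view. Shared windows were counted in M21 transcripts, leaving out genes overlapping at the same place. The scripts were tested on simulated counts. Amplified reads are not independent molecules, so intervals and floors cover counting error only.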

Additional observations from a re-analysis of the deposited data

How the results depend on the processing

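Among all tested genes the number called was 33, against 237 with DESeq2, 91 without a filter on low counts (49 higher and 42 lower in KO), 16 at an adjusted p of 0.01 and 532 at an unadjusted p of 0.05, and 6 to 29 with 1 library left out. Of the 87 genes, DESeq2 called 2 and an unadjusted p of 0.05 gave 4; every other setting run called 0. Library totals in place of TMM moved the median of all tested genes to 0.094 and those of all 87 genes, the nuclear genes and complex V to -0.017, -0.015 and -0.1. limma-voom gave -0.133 for all tested genes and -0.445 for complex V. With 1 library left out the medians ran from -0.198 to -0.054 over the 87 genes, from -0.201 to 0.025 for complex I and from -0.322 to -0.135 for complex V. The share of counts from mitochondrial protein genes, KO minus WT, ran from -0.0542 to 0.0636 percentage points with 1 library left out.

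No shared deviation was seen in same-numbered libraries (correlations from -0.017 to -0.003). The other pairings ran from -0.02 to 0.028, so this check cannot tell whether the numbers pair the samples. With the replicate block, complex V stood at -0.472, 38 genes passed in all and none of the 87.

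With 1 library left out, the sign turned for 32 of the 87 genes, whose median size of log2 fold change was 0.14 and whose largest was 1.10 (Ndufaf6). Among the genes named by rule, Ndufa4 was 0.003 with limma-voom and 0.068 with library totals, Cox7a2 was 0 and 0.054 under the same settings, mt-Nd4 was 1.019 with limma-voom and 0.978 with the replicate block, and mt-Nd6 was -0.012 with the block. Across the left-out libraries, Ndufa4 ran from -0.228 to 0.273, Cox7a2 from -0.326 to 0.198, mt-Nd4 from -0.681 to 1.413, mt-Nd5 from -0.787 to 0.536, mt-Nd6 from -0.246 to 0.247, mt-Co1 from -0.324 to 0.22, Atp5b from -0.328 to 0.016 and Ndufv1 from -0.314 to 0.016. The cause was not tested.

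Some further medians were chosen after seeing the data. They left out genes overlapped by others on at least 10% of their exons or with at least 10% of their windows elsewhere. These medians moved by less than the spread between replicates, but for the mitochondrial genes only narrowly. Without mt-Nd4, mt-Co1 and mt-Co2 the mitochondrial median was -0.394, the value of mt-Nd5. It was -0.131 over all 8 genes, and the spread between replicates was 0.265. Changes under 2-fold could not be bounded for 69 of the 87 genes at this depth.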
